A study of Mus musculus with 6 samples.

Results

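The genes described here encode the heat shock proteins and the J-domain proteins of the mouse, the main protein-folding machinery of the cell. They were taken by name: every gene of the deposited table whose symbol begins with Hspa, Hspb, Hspd, Hspe, Hsph, Hsp90 or Dnaj. The rule found 67 of 15487 genes, and all 67 identifiers and symbols matched the RefSeq gene table of GRCm38. Of these, 59 reached 1 FPKM (a level per transcript length and library size) in at least 3 of the 6 libraries and were tested. Hspbp1, Hspb11 and Hspbap1 share the start of the name but encode other proteins, so they are described separately.

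Hsp70 proteins bind stretches of unfolded protein and release them in a cycle driven by ATP. J-domain proteins bring clients to Hsp70 and trigger its ATPase, and Hsp110 proteins and other exchange factors reset it. Hsp90 completes the folding of kinases, steroid receptors and other signalling proteins, chaperonins fold proteins inside a cage, and small heat shock proteins hold unfolded proteins until they can be refolded. Some of these genes are always on, and others are switched on by the factor Hsf1 when proteins unfold, for example in heat. In the endoplasmic reticulum a separate program, the unfolded protein response, raises the Hsp70 protein BiP and its partners. Digesting and sorting a tissue can also switch on heat shock and immediate early genes within the preparation, so the values are given library by library.

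Macrophages were collected by flow cytometry on day 15 after tumour challenge from tumours of implanted CT26 cells, a colon carcinoma line of the mouse, and their RNA was sequenced. The Sg-Con group came from tumours of CT26 Sg-Con cells and the Sg-C3 group from tumours of CT26 Sg-C3 cells, read here as a control guide RNA and a guide RNA against complement C3, with 3 libraries each. All samples are labelled strain BALB/C and genotype wild type, so the guide is taken to have been in the tumour cells and not in the sorted cells, and C3 RNA in the libraries does not check the labels. The sources used here give no age, sex or site of implantation, and do not say whether a CT26 line was a single clone. Nothing in the labels ties the 3 libraries of a group to separate mice, so the p-values speak only of the spread among these libraries, which may be technical.

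Summed FPKM ran from 474579 to 487358 per library, and the steps between low values put the depth at an estimated 17.6 to 19.3 megareads. Libraries correlated at 0.986 to 0.990 within a group and at 0.945 to 0.974 between groups (Pearson r over the log2 values of genes). All 6 macrophage markers were tested. None was higher and 3 were lower in Sg-C3, with summed levels of 1888 to 2025 FPKM in Sg-Con and 1165 to 1472 FPKM in Sg-C3. Over all tested genes 12.7% were higher and 31.7% lower. Cd68 (means 725 and 403 FPKM) and Itgam (523 and 304.5 FPKM) made most of the fall, and Mertk was also called lower. Adgre1 (173 and 172 FPKM) and Fcgr1 (85.9 and 84.5 FPKM) overlap between groups, and Csf1r did not pass. Markers of other cells moved with the group as well. Neutrophil markers (4 of 7 tested higher, none lower) summed to 163 to 233 and 392 to 1335 FPKM, with Ly6g listed at 0 in at least 1 library. T and NK cell markers summed to 2.37 to 3.77 and 20.2 to 31.2 FPKM, with Cd3g, Prf1, Nkg7 and Ncr1 listed at 0 in at least 1 library. All 5 that were tested were called higher, but each was below 1 FPKM in every Sg-Con library. They met the filter only through Sg-C3, so that count carries no weight. Of the untested markers, Cd3e (means 1.19 and 1.07 FPKM) and Cd2 (0.473 and 0.58 FPKM) overlap between groups. Cd3d, Ncr1 and Prf1 lay wholly higher in Sg-C3. Dendritic cell markers (2 of 3 tested higher) summed to 11.5 to 15.5 and 35.2 to 63.5 FPKM, fibroblast markers (3 of 6 higher, 1 lower) to 59.2 to 79.7 and 139 to 201 FPKM, and endothelial markers (1 of 3 higher, 1 lower) to 9.55 to 18 and 60.1 to 79.1 FPKM. In these sums most of the rise was S100a8 and S100a9 for neutrophils, Ccr7 for dendritic cells, Dcn for fibroblasts and Pecam1 for endothelial cells. The neutrophil markers Mmp8 and Mmp9 did not pass, with log2 fold changes of -1.045 and -0.60, and the endothelial marker Cdh5 fell. Both tested carcinoma markers were lower (summed level 16.3 to 29.8 and 2.43 to 3.15 FPKM), but Krt8 met the filter only through Sg-Con. In such sorted bulk samples, fewer cells of a type and less RNA per cell cannot be told apart, and the part of these other cells in the chaperone values was not tested.

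The sequences below show the elements that the heat shock and the endoplasmic reticulum programs are known to use, where the letters were found near the start of these genes. They come from the RefSeq promoter table of GRCm38.p6, which spans 250 bases before to 50 bases after each transcript start and holds 54 of the 67 genes. Hspa8, Hsp90aa1 and Hspa13 are among those without a window, so they were not searched. A heat shock element of 3 units was searched as GAANNTTCNNGAA on both strands, and 0.603% of all 32851 windows held it. Among the chaperone genes it was found for Dnajb6, Hsph1, Hspd1 and Hspe1, and the last pair face away from each other across 1 shared promoter that holds 2 overlapping matches. The shorter element of 2 units, GAANNTTC, reads the same on both strands, lies inside every match of the longer one and was searched after the first result had been seen. It was in 7.86% of windows and in those of 12 of the 54 genes. The endoplasmic reticulum stress element, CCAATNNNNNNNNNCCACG on either strand, was in 0.119% of windows and in those of Hspa5, Hsp90b1 and Dnajc3. Counted by gene, 0.662% of all genes held the element of 3 units, 9.04% that of 2 units and 0.137% the endoplasmic reticulum stress element. A match is a description of the letters and not a site shown to be in use. Capitals mark the matched element, each sequence is given 5′ to 3′ on the strand of its gene, and positions count from the transcript start.
The heat shock elements of 3 units of Dnajb6 (chr5:29735844-29735872, plus strand), Hspe1 (chr1:55088053-55088082, plus strand, shared with Hspd1) and Hsph1 (chr5:149636280-149636308, minus strand, just after the start) are shown first.
Dnajb6: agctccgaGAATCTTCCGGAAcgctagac
Hspe1: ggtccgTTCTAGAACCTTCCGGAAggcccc
Hsph1: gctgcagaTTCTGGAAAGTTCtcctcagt
The elements of 2 units of Hspb1 (chr5:135887801-135887830, plus strand) and Dnaja1 (chr4:40722333-40722362, plus strand) follow.
Hspb1: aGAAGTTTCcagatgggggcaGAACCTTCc
Dnaja1: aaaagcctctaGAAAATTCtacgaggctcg
The proximal promoters of the stress-inducible pair Hspa1a (chr17:34972157-34972306, minus strand) and Hspa1b (chr17:34959239-34959388, minus strand) are shown because 247 of their 250 bases before the start are the same.
Hspa1a: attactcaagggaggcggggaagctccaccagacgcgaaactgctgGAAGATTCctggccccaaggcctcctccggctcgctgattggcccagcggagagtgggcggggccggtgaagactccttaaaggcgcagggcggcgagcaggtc
Hspa1b: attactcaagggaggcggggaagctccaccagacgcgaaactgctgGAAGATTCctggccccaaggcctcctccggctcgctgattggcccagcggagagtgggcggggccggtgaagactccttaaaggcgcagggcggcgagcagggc
The endoplasmic reticulum stress elements of Hspa5 (chr2:34772020-34772048, plus strand), Hsp90b1 (chr10:86705510-86705694, minus strand, 2 matches on opposite strands) and Dnajc3 (chr14:118937682-118937931, plus strand) close the set.
Hspa5: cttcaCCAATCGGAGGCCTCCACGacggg
Hsp90b1: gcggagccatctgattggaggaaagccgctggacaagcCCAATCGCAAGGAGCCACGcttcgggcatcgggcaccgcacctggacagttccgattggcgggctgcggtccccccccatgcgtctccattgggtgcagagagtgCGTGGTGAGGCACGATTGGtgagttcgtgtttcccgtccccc
Dnajc3: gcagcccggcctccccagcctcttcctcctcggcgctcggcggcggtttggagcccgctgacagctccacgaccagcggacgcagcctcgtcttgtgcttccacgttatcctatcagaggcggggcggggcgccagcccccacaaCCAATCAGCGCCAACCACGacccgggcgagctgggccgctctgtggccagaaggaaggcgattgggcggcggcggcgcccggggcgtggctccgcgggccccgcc

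The comparison asks how chaperone RNA in macrophages sorted from Sg-C3 tumours differs from that in macrophages sorted from Sg-Con tumours. In Sg-C3, 7 genes rose and 14 fell, and 38 did not pass (limma on log2(FPKM + 1), with a Benjamini-Hochberg adjusted p below 0.05 over all 11198 tested genes as the threshold for a call). The genes that rose were Dnajb1, Hsph1, Hspa5, Dnajb6, Dnaja1, Hsp90aa1 and Hspa13. Those that fell were the most abundant Hsp70 gene Hspa8, Hspa4l, the small heat shock protein gene Hspb6, Dnaja3, 8 J-domain genes of type C, and Hspbp1 and Hspb11. The share called was 35.6%, below the 44.4% of all tested genes, with 11.9% higher against 12.7% and 23.7% lower against 31.7%. By this measure the 59 genes, which include the 3 that share only the start of the name, were not called more often than all tested genes in either direction. The 3 values of one group lay wholly above those of the other for 10 chaperone genes in Sg-C3 and wholly below for 20, together 30 of 59. Over all tested genes 57.6% did not overlap, 16.2% higher and 41.4% lower.

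The median log2 fold change (Sg-C3 minus Sg-Con) of the chaperone genes was -0.084, beside -0.16 for all tested genes. The all-gene median is a shift that depends on the scaling, at -0.16 with the deposited values, -0.058 with quantile normalization and -0.017 with median-ratio scaling. The chaperone median was -0.024 with quantile normalization and turned to 0.080 with median-ratio scaling. Relative to the deposited shift, the 7 genes that rose lay between 0.46 and 1.11 and the 14 that fell between -0.64 and -0.19. All 7 of the higher calls were made under all 3 scalings, and of the lower calls 7 were (Dnaja3, Dnajc10, Dnajc13, Dnajc24, Dnajc9, Hspb6 and Hspbp1). When each library was left out in turn, 8 of the 21 called genes were called in all 6 fits, namely Dnajb1, Hspa5, Dnajb6, Dnajc24, Dnajc10, Hspb6, Hspbp1 and Dnajc13. The other 13 lost the call in at least 1 fit, and all 21 kept their direction in all 6.

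**Figure D1:**
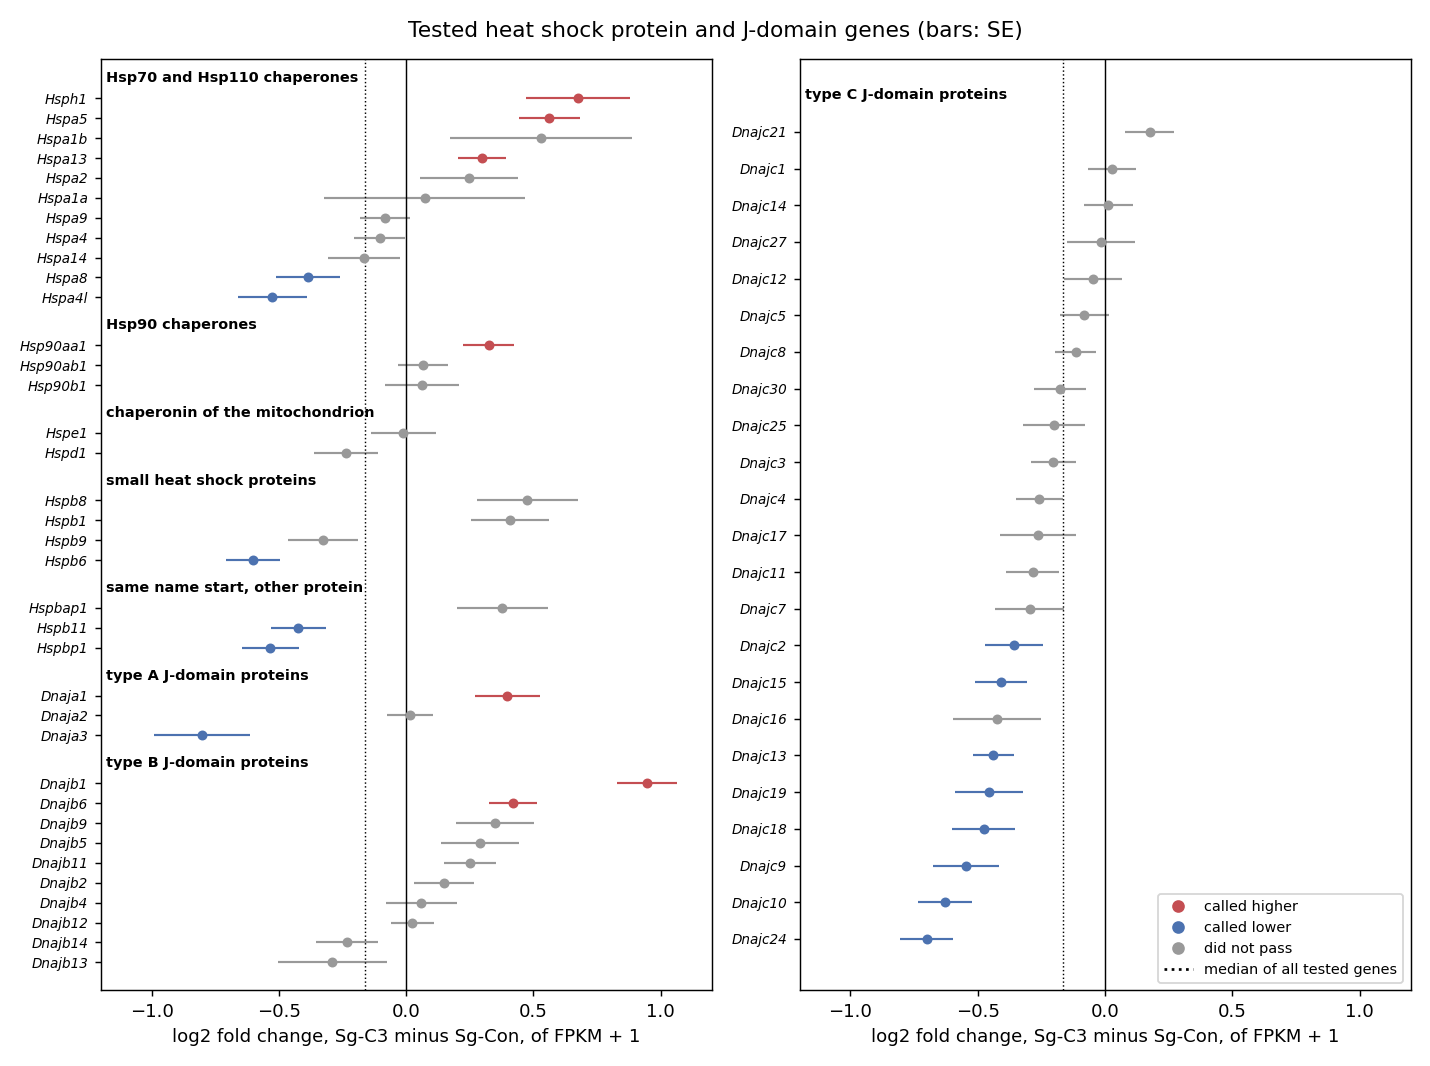
Log2 fold change of FPKM + 1 (x axis, Sg-C3 minus Sg-Con) for the 59 tested genes, grouped by protein class, with bars of 1 limma standard error, colour for the call and a dotted line at the all-gene median of -0.16. The 7 higher calls are spread over the Hsp70, Hsp90, type A and type B classes, and the 23 type C genes on the right hold 8 lower calls and no higher one.

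Among the 11 tested Hsp70 and Hsp110 genes, Hsph1, Hspa5 and Hspa13 rose and Hspa8 and Hspa4l fell. The share called was 45.5%, near the 44.4% of all tested genes, with 27.3% higher against 12.7% and 18.2% lower against 31.7%. Hspa8 encodes the constitutive Hsc70 and had the highest level of all the chaperone genes. It stood at 2054, 2072 and 1909 FPKM in Sg-Con replicates 1 to 3 and at 1549, 1316 and 1791 FPKM in Sg-C3 replicates 1 to 3. The Sg-C3 mean was 77.1% of the Sg-Con mean (2012 ± 89.3 and 1552 ± 238 FPKM, SD, n = 3, log2 fold change -0.38 with SE 0.13, limma adjusted p = 0.0427), and no value of one group reached into the other. The call is close to the threshold. It held in 1 of the 6 fits that leave out a library, with log2 fold changes of -0.49 to -0.27, and it was lost after median-ratio scaling and with no filter on low values (adjusted p = 0.0669). Hspa8 has many processed pseudogenes in the mouse genome, and the sources used here do not say how reads that match several copies were counted.

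Hsph1, which encodes the inducible Hsp110 that exchanges nucleotide on Hsp70, stood at 23, 21.6 and 20.6 FPKM in Sg-Con and at 35, 25.9 and 48.2 FPKM in Sg-C3. Its mean rose from 21.7 ± 1.2 to 36.4 ± 11.2 FPKM (log2 fold change 0.68 with SE 0.20, adjusted p = 0.0324). The groups do not overlap, but the Sg-C3 libraries lie 1.86-fold apart, a spread within Sg-C3 that 7.99% of tested genes reach. Hsph1 was called in 2 of the 6 fits that leave out a library, with log2 fold changes of 0.46 to 0.89. The other Hsp110 genes did not move with it. Hspa4l fell from 13.9 ± 2.3 to 9.28 ± 0.893 FPKM (log2 fold change -0.53 with SE 0.13, adjusted p = 0.0186), and Hspa4, at 41.8 ± 3.68 and 38.7 ± 2.43 FPKM, did not pass (adjusted p = 0.415).

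Hspa5 encodes BiP, the Hsp70 protein of the endoplasmic reticulum. It stood at 1015, 883 and 889.5 FPKM in Sg-Con and at 1575, 1225 and 1334 FPKM in Sg-C3. All 3 Sg-C3 libraries were above all 3 Sg-Con libraries, and the mean rose 1.48-fold (929 ± 74.5 to 1378 ± 179 FPKM, log2 fold change 0.56 with SE 0.12, adjusted p = 0.0102). Hspa13, an Hsp70-like ATPase of the microsomes, stood at 16.9, 18.4 and 18.7 FPKM in Sg-Con and at 23.5, 23.2 and 20.5 FPKM in Sg-C3. Its rise was smaller (log2 fold change 0.30 with SE 0.10, adjusted p = 0.0386) and was called in 1 of the 6 fits that leave out a library.

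The stress-inducible Hsp70 genes Hspa1a and Hspa1b had the widest spread over the Sg-C3 libraries of all tested chaperone genes. Hspa1a stood at 268, 251 and 213 FPKM in Sg-Con and at 286, 131 and 445 FPKM in Sg-C3. Hspa1b stood at 205, 169 and 175 FPKM in Sg-Con and at 281, 146 and 447 FPKM in Sg-C3. For both genes Sg-C3 replicate 2 was the lowest and Sg-C3 replicate 3 the highest of the 6 libraries, so the Sg-Con values lie inside the range of Sg-C3. The Sg-C3 libraries spanned 3.41-fold for Hspa1a and 3.06-fold for Hspa1b, a range that 1.49% and 1.79% of tested genes reach, while the Sg-Con libraries spanned 1.26-fold and 1.21-fold. Neither passed. Hspa1a had a log2 fold change of 0.072 (SE 0.39, adjusted p = 0.892, 95% interval -0.85 to 1.00) and Hspa1b of 0.53 (SE 0.36, adjusted p = 0.257, 95% interval -0.31 to 1.37). The sign for Hspa1a turned with the library left out, from -0.33 without Sg-C3 replicate 3 to 0.55 without Sg-C3 replicate 2. Reads from the near-identical copies can be split between them, so the level of each alone is uncertain. Their sum was 473, 420 and 388 FPKM in Sg-Con and 567, 277 and 892 FPKM in Sg-C3, with the same library lowest and the same library highest.

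Hspa9, which encodes the mitochondrial Hsp70, did not pass at 85.1 ± 8.91 and 80 ± 3.3 FPKM (log2 fold change -0.084 with SE 0.10, adjusted p = 0.512), and its sign turned to 0.081 after median-ratio scaling. Hspa2 and Hspa14 did not pass either (log2 fold changes 0.25 and -0.17). Hspa1l, which lies with Hspa1a and Hspa1b on chromosome 17, was too low to test, at 1.37 ± 0.472 and 0.467 ± 0.0902 FPKM, and so was Hspa12b.

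Of the 3 Hsp90 genes, Hsp90aa1 rose and Hsp90ab1 and Hsp90b1 did not pass, beside 12.7% of all tested genes called higher. Hsp90aa1 encodes the inducible cytosolic form and stood at 243, 219.5 and 261 FPKM in Sg-Con and at 321, 279 and 306 FPKM in Sg-C3. The groups do not overlap, and the mean rose from 241 ± 20.9 to 302 ± 20.9 FPKM (log2 fold change 0.32 with SE 0.10, adjusted p = 0.0345), with the call kept in 1 of the 6 fits that leave out a library. Hsp90ab1, the constitutive cytosolic form, was the more abundant at 657, 550 and 592 FPKM in Sg-Con and 639, 590 and 652 FPKM in Sg-C3. Those groups overlap fully, and the interval of the log2 fold change ran from -0.16 to 0.30 (estimate 0.066, adjusted p = 0.604). Hsp90b1, the Hsp90 of the endoplasmic reticulum, stood at 400, 274 and 299 FPKM in Sg-Con and at 346, 319 and 338 FPKM in Sg-C3. Sg-Con held both its highest and its lowest value (log2 fold change 0.062 with SE 0.14, adjusted p = 0.746, 95% interval -0.28 to 0.40).

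The chaperonin of the mitochondrion, made of the Hspd1 cage and its Hspe1 lid, did not pass. Hspd1 stood at 92.2, 71.6 and 85.6 FPKM in Sg-Con and at 66.7, 65.3 and 79.2 FPKM in Sg-C3 (log2 fold change -0.24 with SE 0.13, adjusted p = 0.160). Hspe1 stood at 78.9, 67.8 and 75 FPKM in Sg-Con and at 73.5, 62.6 and 85.1 FPKM in Sg-C3 (log2 fold change -0.012 with SE 0.13, adjusted p = 0.947). The sign for Hspe1 depended on the scaling, at 0.021 with quantile normalization and 0.15 with median-ratio scaling. The 2 genes share the promoter shown above. In Sg-C3 both were lowest in replicate 2 and highest in replicate 3. This order is not particular to the pair, since 9 of the 10 heat-inducible genes described below had it.

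Of the 6 small heat shock protein genes 4 were tested, and all 4 had groups that do not overlap, Hspb1 and Hspb8 higher in Sg-C3 and Hspb6 and Hspb9 lower. Groups did not overlap for 57.6% of all tested genes. Only Hspb6 passed. Hspb6, or Hsp20, was low throughout, at 2.28, 2.46 and 2.15 FPKM in Sg-Con and 1.29, 1.08 and 1.14 FPKM in Sg-C3, and fell by 0.60 on the log2 scale (SE 0.11, adjusted p = 0.00574), which understates the change at such low levels since its Sg-C3 mean was 50.9% of the Sg-Con mean. Hspb1, or Hsp27, stood at 15.3, 14.1 and 15 FPKM in Sg-Con and at 21.4, 15.6 and 23.9 FPKM in Sg-C3 (log2 fold change 0.41 with SE 0.15, adjusted p = 0.0654). Its call missed the threshold with Sg-C3 replicate 2 close to the Sg-Con values, and it passed under both other scalings. Hspb8, which works with Bag3 in the removal of misfolded proteins, stood at 3.15, 4.86 and 5.79 FPKM in Sg-Con and at 6.21, 7.89 and 5.92 FPKM in Sg-C3 (log2 fold change 0.48, adjusted p = 0.0862). Hspb2 and Hspb7 were too low to test.

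The 3 genes that share only the start of the name gave 2 lower calls, beside 31.7% of all tested genes called lower. Hspbp1, which encodes an exchange factor that releases nucleotide from Hsp70, stood at 22.3, 19.8 and 21.6 FPKM in Sg-Con and at 13.9, 12.9 and 16.3 FPKM in Sg-C3 (log2 fold change -0.53 with SE 0.11, adjusted p = 0.00936). Hspb11, a subunit of the intraflagellar transport machinery, fell from 7.2 ± 0.593 to 5.11 ± 0.417 FPKM (log2 fold change -0.42 with SE 0.11, adjusted p = 0.018). Hspbap1, named for binding Hspb1, was near the limit of testing at 1.03 ± 0.0819 and 1.68 ± 0.613 FPKM and did not pass (adjusted p = 0.122).

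J-domain proteins are sorted by domain structure into types A, B and C, where types A and B resemble the bacterial DnaJ and type C shares only the J domain. Of 3 tested type A genes 1 was called higher and 1 lower, and of 10 tested type B genes 2 were higher and none lower. The type B share of higher calls was 20%, beside 12.7% of all tested genes. Type C genes gave none higher and 8 lower. The type C share of lower calls, 34.8%, was near the 31.7% of all tested genes. Of 10 tested type B genes, 8 had a log2 fold change above 0 (median 0.20), and of 23 tested type C genes, 20 had one below 0 (median -0.26), beside 7195 of 11198 tested genes below 0. Both medians kept their sign under the other scalings, at 0.28 and -0.12 with quantile normalization and 0.36 and -0.12 with median-ratio scaling, although the type C calls went to 4 lower and none higher and to 4 lower and 1 higher. With Sg-Con replicate 1 or Sg-C3 replicate 1 left out 5 type C genes were lower, and 4 with Sg-C3 replicate 2 left out.

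Dnajb1, the main cytosolic Hsp40 and a classical partner of the inducible Hsp70, had the largest rise of the chaperone genes tested. It stood at 30.9, 28.1 and 32.2 FPKM in Sg-Con and at 56.2, 54.2 and 69.2 FPKM in Sg-C3. The lowest Sg-C3 library lay well above the highest Sg-Con library, and the mean rose 1.97-fold (30.4 ± 2.09 to 59.9 ± 8.14 FPKM, log2 fold change 0.95 with SE 0.12, adjusted p = 0.00223). Unlike Hspa1a and Hspa1b, it was above Sg-Con in Sg-C3 replicate 2 as well. Dnajb6, which keeps aggregation-prone proteins soluble, stood at 63.7, 61.7 and 68.8 FPKM in Sg-Con and at 84.3, 95.1 and 81.5 FPKM in Sg-C3 (log2 fold change 0.42 with SE 0.094, adjusted p = 0.0122). Its highest library was Sg-C3 replicate 2, the one that was lowest for Hspa1a. The other 8 tested type B genes did not pass, with log2 fold changes from -0.29 for Dnajb13 to 0.35 for Dnajb9, and Dnajb3 was too low to test.

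Dnaja1 and Dnaja3 went in opposite directions. Dnaja1, a cytosolic partner of Hsc70, stood at 44.9, 45.2 and 49.3 FPKM in Sg-Con and at 59, 53.3 and 73.6 FPKM in Sg-C3 (log2 fold change 0.40 with SE 0.13, adjusted p = 0.0404), and was called in 1 of the 6 fits that leave out a library. Dnaja3, the mitochondrial partner of Hspa9, stood at 9.65, 8.86 and 6.6 FPKM in Sg-Con and at 3.67, 3.8 and 5.72 FPKM in Sg-C3. It fell to 52.5% of the Sg-Con mean, the lowest log2 fold change of the tested chaperone genes (-0.80, SE 0.19, adjusted p = 0.0139), and lost the call when Sg-C3 replicate 2 or Sg-C3 replicate 1 was left out. Dnaja2, close kin of Dnaja1, did not pass at 46.2 ± 3.47 and 46.7 ± 2.17 FPKM, and Dnaja4 was too low to test.

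The 8 type C genes that fell serve in several parts of the cell. Dnajc24, needed to make diphthamide on the elongation factor Eef2, stood at 8.77, 8.25 and 7.48 FPKM in Sg-Con and at 4.39, 4.53 and 4.99 FPKM in Sg-C3 (log2 fold change -0.70 with SE 0.10, adjusted p = 0.00354). Dnajc10, or ERdj5, a disulfide reductase of the endoplasmic reticulum, stood at 25, 25.4 and 25.5 FPKM in Sg-Con and at 14, 16.3 and 17.9 FPKM in Sg-C3 (log2 fold change -0.63 with SE 0.11, adjusted p = 0.00521). In both genes the groups are far apart next to their spread. Dnajc13, an endosomal sorting protein, held within 1.05-fold in each group, at 21.7, 22.1 and 21.1 FPKM and 15.2, 15.9 and 16 FPKM, and fell by 0.44 on the log2 scale (SE 0.081, adjusted p = 0.00656).

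Dnajc9, a chaperone of histones, stood at 13.3, 10.3 and 13.2 FPKM in Sg-Con and at 7.14, 8.4 and 8.59 FPKM in Sg-C3 (log2 fold change -0.55 with SE 0.13, adjusted p = 0.0144). The inner mitochondrial membrane proteins Dnajc19 and Dnajc15 fell by 0.46 and 0.41 (SE 0.13 and 0.10, adjusted p = 0.0288 and 0.0173). Dnajc2, which works with Hspa14 at the ribosome, fell by 0.36 (SE 0.11, adjusted p = 0.0382) and Dnajc18, at no more than 2.42 FPKM in any library, by 0.48 (SE 0.12, adjusted p = 0.0194). The calls of Dnajc2, Dnajc15, Dnajc18 and Dnajc19, together with those of Hspa4l and Hspb11, were lost under both other scalings. The 15 type C genes that did not pass had log2 fold changes from -0.42 for Dnajc16 to 0.17 for Dnajc21. Among them were Dnajc7, a co-chaperone of Hsp70 and Hsp90, at 33.8 ± 3.66 and 27.5 ± 4.43 FPKM, Dnajc8, of the splicing machinery, at 58 ± 1.04 and 53.5 ± 2.66 FPKM, and Dnajc5, the cysteine string protein of secretory vesicles, at 31.6 ± 1.52 and 29.9 ± 2.48 FPKM. Dnajc22 and Dnajc28 were too low to test.

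The 10 genes listed as heat-inducible cut across these classes. They were Hspa1a, Hspa1b, Hspa8, Hsp90aa1, Hsph1, Hspb1, Hspd1, Hspe1, Dnaja1 and Dnajb1, of which 4 rose, 1 fell and 5 did not pass, with a median log2 fold change of 0.36. The shares were 40% higher and 10% lower, beside 12.7% and 31.7% of all tested genes. The 1 that fell was Hspa8, described above as constitutive. The sum of the list went the other way from its median, from 2951 ± 109 to 2755 ± 610 FPKM, since Hspa8 makes up most of this sum. The median deviation of the list from its Sg-Con mean, on the log2(FPKM + 1) scale, was 0.062, -0.086 and 0.021 in the Sg-Con libraries and 0.38, -0.082 and 0.65 in Sg-C3 replicates 1 to 3. Sg-C3 replicate 2 therefore lay among the Sg-Con libraries while Sg-C3 replicates 1 and 3 lay above all of them. Within Sg-C3, replicate 2 was the lowest for 10 of the 10 genes and replicate 3 the highest for 9, with Hsp90aa1 the exception. Replicate 2 was also the lowest of Sg-C3 in the median over all tested genes, at -0.21 beside -0.14 and -0.15 in replicates 1 and 3. Without Sg-C3 replicate 3 the list had 2 higher and 1 lower call and a median of 0.21, and without Sg-C3 replicate 2 it had 5 higher and none lower and a median of 0.52. With Sg-C3 replicate 1, Sg-Con replicate 1 or Sg-Con replicate 2 left out, it had 1 higher call.

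**Figure D2:**
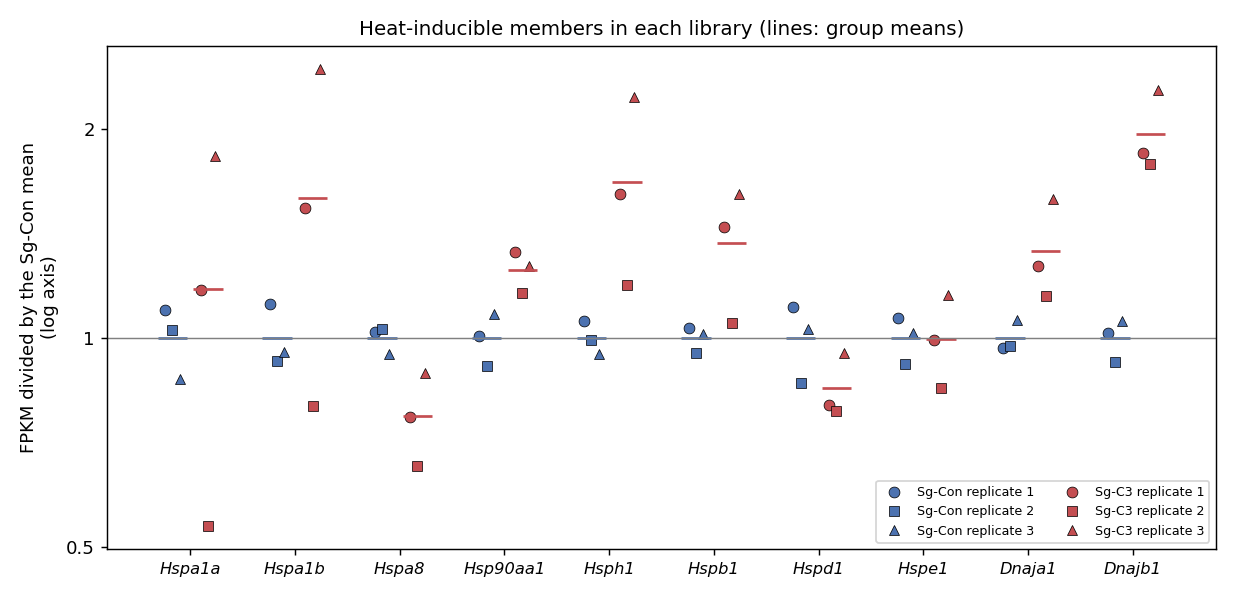
FPKM of the 10 heat-inducible genes in each of the 6 libraries, divided by the gene's Sg-Con mean (y axis, log scale), with lines at the group means. Hspa1a and Hspa1b spread 3.41-fold and 3.06-fold over the Sg-C3 libraries, with replicate 2 (square) below the Sg-Con libraries, while all 3 Sg-C3 libraries of Dnajb1 lie above Sg-Con.

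Immediate early genes, which respond within minutes to cell handling as well as to signals in the tissue, gave a similar order of the Sg-C3 libraries. Over 24 such genes the median deviation from the Sg-Con mean was 0.11, 0.065 and -0.12 in the Sg-Con libraries and -0.37, -0.66 and 0.28 in Sg-C3 replicates 1 to 3. Replicate 3 was again the highest and replicate 2 the lowest of Sg-C3, but replicate 1, which was high for the heat-inducible genes, was below all Sg-Con libraries. Of the 24 genes, 3 were called higher and 4 lower, or 12.5% and 16.7%, beside 12.7% and 31.7% of all tested genes. Gadd45b, a stress and growth arrest gene, rose from 325.5 ± 20.8 to 554 ± 49.4 FPKM and Socs3, a feedback inhibitor of cytokine signalling, from 392 ± 15.9 to 585.5 ± 46.7 FPKM (0.76 and 0.57 as log2 fold changes, adjusted p = 0.00255 and 0.00442). The transcription factor genes Nr4a1 and Klf4 fell (log2 fold changes -1.29 and -1.02, adjusted p = 0.0192 and 0.0187). Without Sg-C3 replicate 3 there were 2 higher and 11 lower calls in the list, and without Sg-C3 replicate 2 there were 3 higher and none lower. With any other library left out there were 0 to 2 lower. The part of dissociation or handling in the chaperone values was not tested, and the labels name no batch. In both groups the sample title of replicate 3 begins differently from those of replicates 1 and 2, and the labels do not say why.

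**Figure D3:**
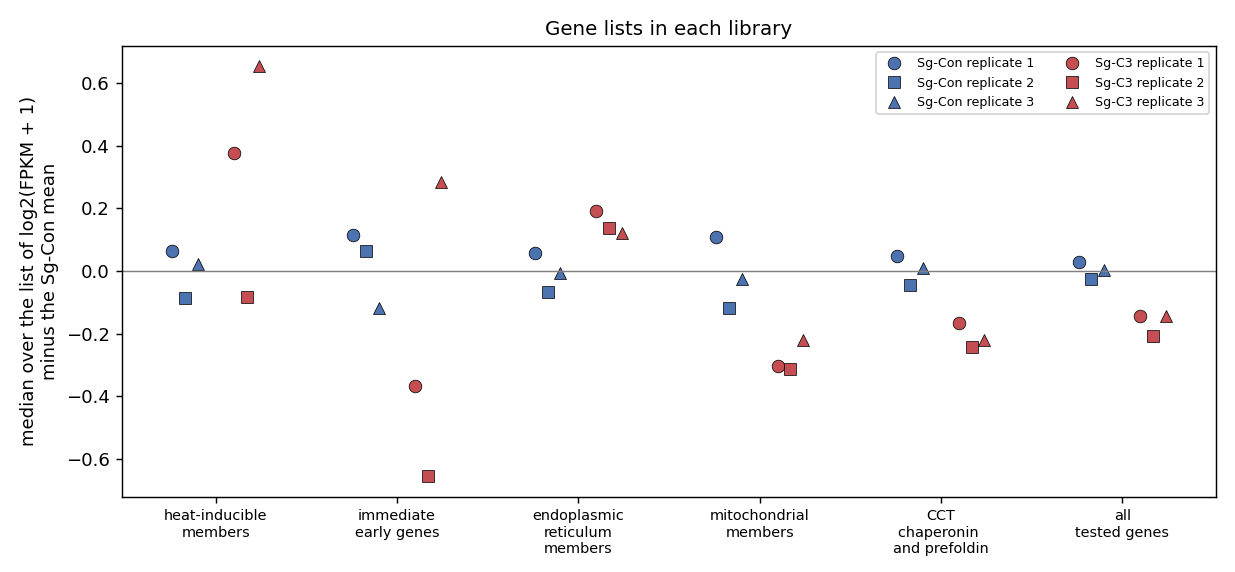
Median over each gene list of log2(FPKM + 1) minus the gene's Sg-Con mean (y axis), for the 6 libraries. For heat-inducible and immediate early genes the Sg-C3 libraries are far apart, with replicate 3 at 0.65 and 0.28 and replicate 2 at -0.082 and -0.66, while for the other 4 lists drawn (endoplasmic reticulum, mitochondrial, CCT and all tested genes) the 3 Sg-C3 libraries lie on 1 side of Sg-Con.

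Of the 8 chaperones that work in the endoplasmic reticulum, Hspa5 and Hspa13 rose, Dnajc10 fell and 5 did not pass. This is 25% higher and 12.5% lower, beside 12.7% and 31.7% of all tested genes. The list median was 0.058, -0.068 and -0.0078 in the Sg-Con libraries and 0.19, 0.14 and 0.12 in the Sg-C3 libraries, so all 3 Sg-C3 libraries lay above Sg-Con and near each other. Dnajb9 (ERdj4) stood at 41.5, 46.7 and 63.2 FPKM in Sg-Con and at 65.8, 60.6 and 64.2 FPKM in Sg-C3 (adjusted p = 0.0993). Dnajb11 (ERdj3) stood at 75.3, 61.7 and 65.8 FPKM in Sg-Con and at 81.5, 84.5 and 75.1 FPKM in Sg-C3 (adjusted p = 0.0828). Both would be called higher after median-ratio scaling, and Sg-Con overlaps Sg-C3 in each. Dnajc3, a brake on the kinase Eif2ak3, stood at 28.6, 26 and 27.3 FPKM in Sg-Con and at 22, 24.4 and 24.4 FPKM in Sg-C3 (log2 fold change -0.20, adjusted p = 0.0996), and Dnajc1 did not pass at 5.35 ± 0.202 and 5.48 ± 0.252 FPKM. Hspa5 and Hsp90b1 are often raised together by the unfolded protein response. Here the ratio of Hspa5 to Hsp90b1 was 2.54, 3.23 and 2.97 in the Sg-Con libraries and 4.55, 3.84 and 3.95 in the Sg-C3 libraries, a comparison chosen after the values were seen.

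**Figure D4:**
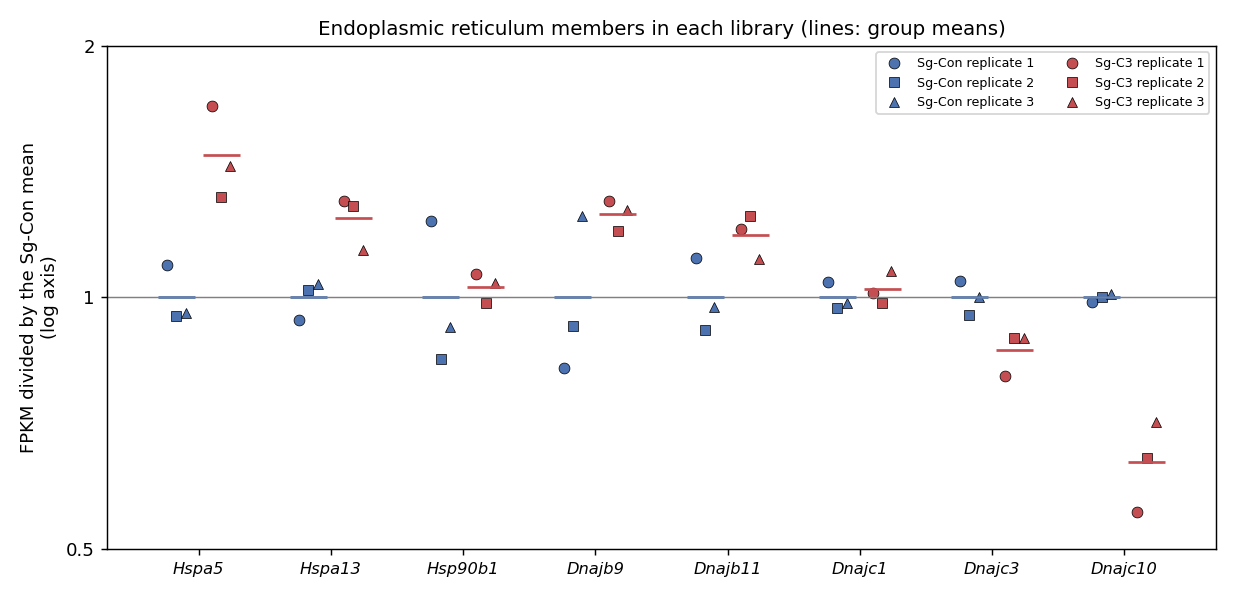
FPKM of the 8 endoplasmic reticulum chaperones in each library, divided by the gene's Sg-Con mean (y axis, log scale), with lines at the group means. All Sg-C3 libraries of Hspa5 and Hspa13 lie above Sg-Con, all of Dnajc10 below, and Hsp90b1 overlaps.

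The other genes of the unfolded protein response did not move 1 way. Of 24 tested, 5 rose and 3 fell (median log2 fold change 0.12). That is 20.8% higher and 12.5% lower, beside 12.7% and 31.7% of all tested genes. Ppp1r15a, which restores translation after stress, rose from 306 ± 34.9 to 581 ± 107 FPKM (log2 fold change 0.91 with SE 0.16, adjusted p = 0.00527), and Syvn1, a ubiquitin ligase that clears misfolded proteins, rose from 19.8 ± 0.42 to 28.4 ± 3.96 FPKM (log2 fold change 0.49, adjusted p = 0.0126). The disulfide isomerase genes P4hb and Pdia4 fell (log2 fold changes -0.40 and -0.76, adjusted p = 0.00732 and 0.0142). After median-ratio scaling the list had 8 higher and 2 lower calls, and 2 higher calls were left when either Sg-C3 replicate 1 or Sg-Con replicate 2 was omitted, and 3 with Sg-C3 replicate 3 omitted.

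All 8 tested mitochondrial chaperones had a log2 fold change below 0 with the deposited scaling, and Dnaja3, Dnajc15 and Dnajc19 passed. The share lower was 37.5%, beside 31.7% of all tested genes. The list median was 0.11, -0.12 and -0.025 in the Sg-Con libraries and -0.30, -0.31 and -0.22 in the Sg-C3 libraries, where the median over all tested genes was -0.14, -0.21 and -0.15. After median-ratio scaling 6 of the 8 were below 0 and 1 was called, and without Sg-C3 replicate 2 none was called. Dnajc11 and Dnajc30 did not pass at 14.6 ± 1.32 and 11.8 ± 0.821 FPKM and at 10.6 ± 0.741 and 9.29 ± 0.682 FPKM.

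Genes that work with the chaperones but carry other names were mostly not called higher. Of 26 genes listed as co-chaperones of Hsp70 and Hsp90, 8 fell and 1 rose, a share of 30.8% lower beside 31.7% of all tested genes. The list median turned from -0.11 to 0.03 after median-ratio scaling, where 4 were called higher and 5 lower. With Sg-C3 replicate 2 left out 5 were lower. Fkbp5, an immunophilin of Hsp90 that glucocorticoids switch on, fell from 52 ± 16.4 to 9.26 ± 4.38 FPKM (log2 fold change -2.41 with SE 0.35, adjusted p = 0.00346). Its kin Fkbp4 fell from 37.7 ± 4.43 to 21.5 ± 1.87 FPKM (log2 fold change -0.78 with SE 0.11, adjusted p = 0.00348). Stub1, the ubiquitin ligase that tags clients of Hsp70, fell from 30.5 ± 1.53 to 17.4 ± 2.17 FPKM (log2 fold change -0.78 with SE 0.11, adjusted p = 0.00322), and Bag1, an exchange factor, fell by 0.49 (SE 0.082, adjusted p = 0.00504). These 4 were called in all 6 fits that leave out a library. Serpinh1, which is on the list although it is a collagen chaperone expressed by fibroblasts, was the 1 that rose (log2 fold change 0.56, adjusted p = 0.0375). It was called in 1 of the 6 fits that leave out a library. Of the 6 tested fibroblast markers 3 rose and 1 fell, and their part in this value was not tested.

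The cytosolic chaperonin CCT and its helper prefoldin had 5 of 14 genes lower and none higher (median log2 fold change -0.20). Cct5 and Tcp1 fell by 0.38 and 0.33 (SE 0.077 and 0.073, adjusted p = 0.00864 and 0.0112), and Vbp1 and Pfdn1 by 0.35 and 0.34. The list median lies close to the all-gene shift of -0.16, and the share lower was 35.7% beside 31.7% of all tested genes. Quantile normalization left 3 lower calls and median-ratio scaling 1. With each library left out in turn there were 2 to 4 lower calls. Of 8 tested relatives outside the name rule 37.5% were lower, beside 31.7% of all tested genes. They were the small heat shock protein gene Cryab (log2 fold change -0.98, adjusted p = 0.0161), the mitochondrial Hsp90 gene Trap1 (-0.41, adjusted p = 0.0195) and the clathrin uncoating factor gene Gak (-0.28, adjusted p = 0.0283). None of these calls held without Sg-C3 replicate 1 or without Sg-C3 replicate 2, 1 lower and 1 higher call were made with Sg-Con replicate 1 omitted, and 1 gene of the list was lower with median-ratio scaling. Hsf1, which encodes the heat shock factor itself, did not pass at 13.6 ± 0.861 and 12.6 ± 1.53 FPKM (log2 fold change -0.10, adjusted p = 0.470). Its RNA level does not show its activity.

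Set beside the sequences, the genes with a heat shock element of 3 units were split, with Dnajb6 and Hsph1 called higher and Hspd1 and Hspe1 not passing. Of the 11 tested genes with the element of 2 units, Dnaja1, Dnajb6 and Hsph1 rose, Hspb6 fell and 7 did not pass. Dnajb1, with the largest rise, held neither element in its RefSeq windows, which says only that these letters are not in those windows. Of the 3 genes with the endoplasmic reticulum stress element, Hspa5 rose and Hsp90b1 and Dnajc3 did not pass. Genes that carry the same element thus had different calls. Over all tested genes 12.7% were called higher and 31.7% lower, and sets this small cannot tie a call to an element. Whether the elements were in use was not tested.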

How the data were processed

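The data are RNA sequencing of 6 macrophage libraries, 3 Sg-Con and 3 Sg-C3 from day 15. The authors deposited 1 table of FPKM values per gene and library, without read counts, and its column headers name the unit. The submitters' processing notes list Bowtie 0.12.2 and the mm8 build, and the sources used here do not name the tool that computed FPKM. Extraction was with Trizol, and an MGIEasy as well as a TruSeq kit is named, per the labels' protocols. No coordinates were taken from the table. Promoter sequences are from RefSeq, GRCm38.p6.

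The test was limma 3.58.1 (R 4.3.3, lmFit and trended eBayes) on log2(FPKM + 1), with a pseudocount of 1, for genes that reached 1 FPKM in 3 or more of the 6 libraries. The p-values were adjusted over all 11198 tested genes, with a threshold of 0.05. SE is the moderated standard error, SD is taken over 3 libraries, and fold means the ratio of mean FPKM. A log2 fold change of FPKM + 1 understates the change of low genes. Python 3.11.15, with pandas 2.3.3 and numpy 2.4.6, made the tables, and matplotlib 3.10.9 the drawings. Replicates are numbered in accession order and pair nothing. Depth was estimated from the value of 1 read in 419 short non-coding genes, with 36 bases taken from each length, where 88.7% to 94.4% of values of up to 8 reads were whole within 0.1 read. The fit was also run on simulated data with fewer changed genes, and with larger changes than those of the chaperone genes. That run therefore does not speak to changes of the size described here. Every called gene is named, with full statistics for those of the 10 highest and 10 lowest fold changes and for 14 genes whatever their p, and up to 4 called genes with the smallest p are named from each companion list. Other genes that did not pass are named to fill out their classes. The chaperone genes, lists and tests were chosen with earlier results of these data known. Alternatives were a pseudocount of 0.1, no filter, a mean of at least 5 FPKM, array weights, median-ratio scaling, quantile normalization and the omission of each library. The result of 1 marker list is not reported here.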

Additional observations from a re-analysis of the deposited data

How the results depend on the processing

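The pseudocount, both other filters and array weights kept the counts of called chaperone genes within 1.5 times of those reported (7 higher and 14 lower). Single values were followed for the called genes, the 14 named whatever their p, and Dnajb9, Dnajb11, Dnajc3 and Hspb8, and turned signs are given for those only. Over all 59 genes 25 lay above 0 as reported, 28 with quantile normalization and 32 with median-ratio scaling. Quantile normalization gave 8 lower calls and turned Hspe1 to 0.0214. Median-ratio scaling gave 11 higher and 7 lower calls, 2131 lower calls over all genes and a chaperone median of 0.0801, and turned Hspa9 to 0.0808 and Hspe1 to 0.15. The share of all calls that were lower was 71.5% as deposited, 56.9% with quantile normalization and 50.4% with median-ratio scaling. Array weights turned Hspa1a to -0.16. Leaving out 1 library gave 3 to 7 higher and 6 to 16 lower chaperone genes, 810 to 1423 higher and 1970 to 3639 lower genes over all genes, and a chaperone median of -0.12 to -0.07. The count of higher chaperone genes was 3 when Sg-C3 replicate 1, Sg-Con replicate 1 or Sg-Con replicate 2 was omitted. Lower chaperone genes numbered 9 with Sg-Con replicate 1 omitted, 8 with Sg-C3 replicate 1 omitted and 6 with Sg-C3 replicate 2 omitted. Over all genes there were 879 higher calls if Sg-C3 replicate 1 was omitted and 810 if Sg-C3 replicate 2 was, which also gave the 1970 lower calls. Among the genes followed, the sign turned with a library left out for 3, none of them called. Hspe1 was 0.04 with Sg-Con replicate 1 omitted, 0.00038 with Sg-Con replicate 3 omitted and 0.10 with Sg-C3 replicate 2 omitted, from a range of -0.12 to 0.10. Hsp90b1 was -0.0507 with Sg-Con replicate 2 omitted, from a range of -0.0507 to 0.22. Hspa1a was -0.02 with Sg-Con replicate 3 omitted, -0.01 with Sg-C3 replicate 1 omitted and -0.33 with Sg-C3 replicate 3 omitted, from a range of -0.33 to 0.55. The cause was not tested. Each such fit also has fewer libraries, which was not told apart from the effect of the library omitted. No paired analysis was possible because nothing in the labels ties a Sg-C3 library to a Sg-Con library. With no read counts and 3 libraries per group, small differences in genes near 1 FPKM were not detectable.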

Other observations

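The near-identical Hspa1a and Hspa1b differed in their ratio between the groups. Hspa1a over Hspa1b was 1.31, 1.48 and 1.22 in the Sg-Con libraries and 1.01, 0.895 and 0.996 in the Sg-C3 libraries, with no overlap. The ratio was chosen after the values were seen and was not tested, and the sources used here do not say how reads shared by both copies were divided.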
